A study of Rattus norvegicus with 56 samples.

Results

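The mitochondrial ribosomal proteins were followed in the liver RNA of 56 adult rat offspring, as the rows of the deposited count table whose symbol begins Mrpl or Mrps and a digit. The rule found 69 of 17337 rows, 43 for proteins of the large subunit and 26 for the small subunit; Mrps30 and Mrps18a, named for the small subunit, were counted with the large subunit, where their proteins are known to sit. All animals were Sprague-Dawley rats whose livers were collected on day 180, in the light phase at zeitgeber time 4 (ZT4) or in the dark phase at ZT16, under 12 h of light and 12 h of darkness each day. CON dams stayed on chow. HFhf dams were moved on gestation day 11 to a Western diet, and their water held 25% fructose. IUGR (intrauterine growth restriction) marks offspring whose dams ate 50% fewer calories between gestation day 10 and delivery, after which the diet was chow (IUGR-RC) or HFhf (IUGR-HFhf). Both sexes were sampled at both times, which gives 16 groups of 3 or 4 livers. CON held 3 in each group and HFhf 3 at ZT4 and 4 at ZT16, while IUGR-HFhf held 4 except 3 in males at ZT4 and IUGR-RC held 4 except 3 in females at ZT4. The labels name no litter, so p-values measure the spread between these livers, some of which may share a dam. The 15 IUGR-RC libraries are titled apart from the other 41, males in an M series and females in an F series where all others are in a T series, and were treated as apart: the other 41 were fitted without them. The labels do not say how libraries were sequenced together, and within IUGR-RC the title series goes with the sex. In the T series all males carry lower title numbers than all females, so title order goes with the sex there too.

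Mitochondria keep a genome of their own that encodes a few subunits of the respiratory chain and of ATP synthase, together with the ribosomal RNAs and transfer RNAs that translate them. All proteins of the mitochondrial ribosome are encoded in the nucleus, made on cytosolic ribosomes and imported. The large subunit carries the peptidyl transferase centre and the exit tunnel, and the small subunit carries the decoding site; many of the proteins have a counterpart in bacteria, while others are found in mitochondria alone. Liver is rich in mitochondria, and many of its transcripts follow feeding and the daily clock. RNA encoded in the mitochondrial genome is not analysed here.

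Promoters are shown for members that carry the result between the times. RefSeq promoter windows of GRCr8, each of 300 bases with 250 before and 50 after the annotated start, were matched by symbol to 54 of the 69 members; 2 of these had 2 windows. The 150 bases before the start are printed for Mrpl18, Mrpl42 and Mrpl47, whose ZT16 values cleared the ZT4 values in the most pairs of groups, and for Mrps18c, which rose at ZT16 and has a pair of neighbouring motif matches; the choice was made after their values were seen. Capitals mark matches to the motifs listed after them.
Mrpl18, GRCr8 chr1:50384802-50384951, plus strand: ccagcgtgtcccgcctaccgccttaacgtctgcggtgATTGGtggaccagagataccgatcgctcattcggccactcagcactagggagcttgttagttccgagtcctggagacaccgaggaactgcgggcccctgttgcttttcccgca
Mrpl42, GRCr8 chr7:32028523-32028672, minus strand: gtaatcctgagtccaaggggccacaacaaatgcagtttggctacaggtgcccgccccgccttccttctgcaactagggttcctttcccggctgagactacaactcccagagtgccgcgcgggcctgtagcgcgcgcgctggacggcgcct
Mrpl47, GRCr8 chr2:117447362-117447511, minus strand: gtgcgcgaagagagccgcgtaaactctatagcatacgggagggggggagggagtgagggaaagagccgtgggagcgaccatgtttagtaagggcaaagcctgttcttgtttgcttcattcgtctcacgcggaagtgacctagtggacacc
Mrps18c, GRCr8 chr14:9122907-9123056, minus strand: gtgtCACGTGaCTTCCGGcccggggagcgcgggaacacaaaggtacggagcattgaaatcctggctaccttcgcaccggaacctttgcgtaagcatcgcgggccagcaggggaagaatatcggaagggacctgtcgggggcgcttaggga
Letters were searched on both strands of the whole 300 bases. GCGCANGCG, the core of sites for NRF1, a factor known for driving nuclear genes of mitochondria, was in the windows of 10 of the 54 members (18.5%) and in 5.8% of all 33469 windows. CCGGAAG, a core bound by ETS factors such as GABP, was in 18 (33.3%, against 8.75% of all windows), and AAGATGGCG, read by YY1, was in 9 (16.7%, against 1.73%). CACGTG, the E-box letters of the clock factors CLOCK and BMAL1 and of MYC, was in 6 (11.1%, against 6.42%), and CCAAT, the box of NF-Y, was in 25 (46.3%, against 37.5%). TTATGTAA, the D-box letters of the clock output factor DBP, was in none of the 54 and in 0.893% of all windows. A member was counted once if any of its windows had a match. In the share of all windows, each window was counted once, whatever its matches. In the Mrps18c stretch the E-box starts 146 bases before the annotated start and the ETS letters 139 before it; Mrpl18 has its CCAAT box, read on the other strand, 113 before the start, and Mrpl42 has the YY1 letters 20 bases after it, outside the printed stretch. Of the members with a window, 34 were called higher at ZT16 and 17 were tested and not called: the E-box was in 2 of each, the ETS letters in 10 and 5, and the NRF1 letters in 3 and 6. A match of letters is a description of the sequence and not a binding site.

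Of the 69 members, 66 had enough reads to be tested. Mrpl36 and Mrpl53 had no read in any of the 56 libraries, and Mrpl30 had 31 reads over 21 libraries, with at most 5 in 1 library. The rows for mrpl9, mrpl11 and mrpl24 are spelled in lower case, fall outside the rule and are given with the related genes. Libraries held 5.55 M to 19.1 M counted reads. In females at ZT4, CON held 16.2 M to 18.7 M where HFhf held 5.94 M to 8.68 M, and CON males at ZT4 held 6.43 M to 7.1 M. The hepatocyte markers (8 genes, such as Alb and Apoa1) summed to 169970.0 to 462510.0 CPM (counts scaled to one common library size) in all libraries. Some libraries stood apart: skeletal muscle transcripts, under 10 CPM in the others, summed to 483 CPM in male ZT16 HFhf replicate 3, 59.6 in female ZT4 IUGR-HFhf replicate 2 and 4005 in female ZT4 IUGR-RC replicate 2. The library labelled female ZT4 IUGR-RC replicate 3 had clock genes at the level of ZT16: its Arntl was at 2.22 CPM and its Dbp at 135, where replicates 1 and 2 of that group had Arntl at 60.5 and 47.95 and Dbp at 3.38 and 3.86, and the 4 IUGR-RC females at ZT16 had Arntl at 3.903 to 13.6 and Dbp at 45.2 to 118 CPM. Other ZT4 libraries also had clock genes far from those of CON, as given with the diets below. Every count that the 4 named libraries change by over 1.5 times is given without them. CPM values are on one scale for all 56 libraries; they are not divided by transcript length, so levels were not compared between genes.

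Summed over the 69 rows, the transcripts were higher at ZT16 than at ZT4 in the group means of every diet and sex of the 41 libraries. CON males held 1184, 1196 and 1219.8 CPM at ZT4 and 1309, 1335 and 1388 at ZT16. HFhf males held 1148, 1165 and 1344 at ZT4 and 1422, 1425, 1444 and 1541 at ZT16, and IUGR-HFhf males held 1163, 1229 and 1275 at ZT4 and 1474, 1521, 1569 and 1590.0 at ZT16. In males the times did not overlap in any of the 3 diets. CON females held 1169, 1200.3 and 1311 CPM at ZT4 and 1299, 1327 and 1331 at ZT16. HFhf females held 1256, 1347 and 1394 at ZT4 and 1303, 1318, 1469 and 1502 at ZT16, and IUGR-HFhf females held 1172, 1191, 1340.1 and 1387 at ZT4 and 1359, 1419.5, 1503 and 1518 at ZT16. In females all 3 diets overlapped between the times. The highest mean of the 41 libraries was that of IUGR-HFhf males at ZT16, 1538 ± 51.9 CPM (SD, n = 4), against 1344 ± 40.3 (n = 3) in CON males at that time. IUGR-RC lay higher throughout, between 1668 ± 72.2 (n = 4) in females at ZT16 and 1923 ± 170.1 (n = 4) in males at ZT16. In bulk RNA, fewer cells of a type and less RNA per cell cannot be told apart.

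**Figure D1:**
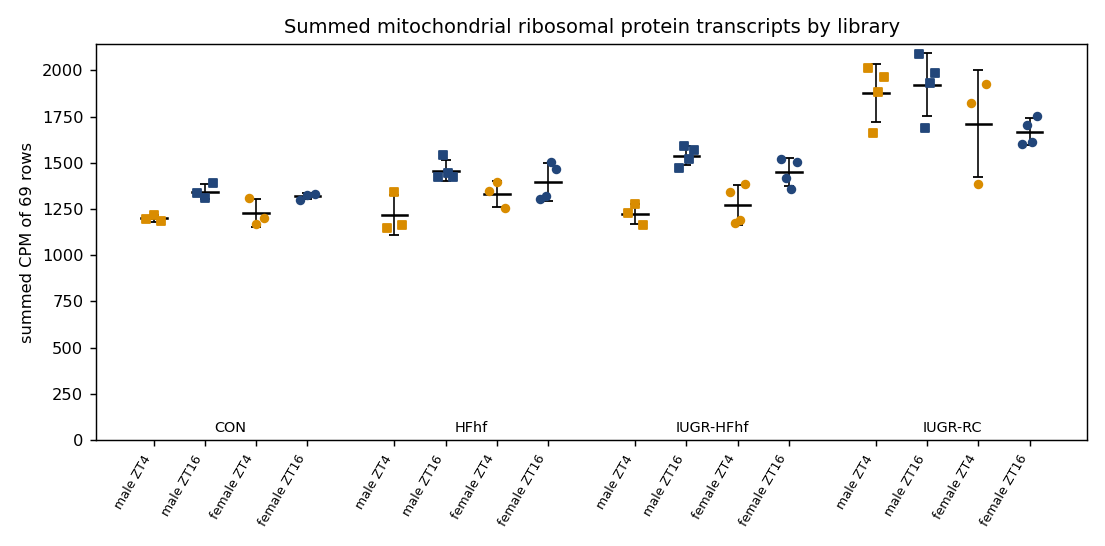
Summed CPM of the 69 rows in each of the 56 libraries (points; squares are males, circles females; orange is ZT4 and blue ZT16), with the mean and SD of each group. The 41 libraries of CON, HFhf and IUGR-HFhf lie between 1148 and 1590.0 CPM, and the 4 IUGR-RC group means lie above the 12 group means of those libraries.

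The time of day moved more members than any diet comparison of the 41 libraries did. At ZT16 45 of the 66 tested members were higher than at ZT4 and none was lower, as the mean of both sexes and 3 diets; the other 21 were not called. A call here is an adjusted p under 0.05 from edgeR's quasi-likelihood test, with Benjamini-Hochberg adjustment over all 10825 genes tested; log2 fold changes are given ± SE. Of all genes tested 21.7% were called higher and 21.2% lower. The median log2 fold change of the members was 0.18, with 62 of 66 above 0, and the median of all genes was -0.001. In the small subunit 20 of 26 members rose and all 26 had a positive difference, with a median of 0.20; in the large subunit 25 of 40 rose, with a median of 0.16. Among proteins with a bacterial counterpart 17 of 24 rose in the large and 12 of 16 in the small subunit, and among those specific to mitochondria 8 of 16 and 8 of 10. With each library left out in turn, 40 to 48 members were higher and none lower. Scaled to the reads of nuclear oxidative phosphorylation genes, which rose at ZT16 too, 10 members were higher and 3 lower. Of the 10825 genes tested, 825 were higher and 4549 lower under that scaling. The scaling moved the median of all genes by -0.16, and the members' median stood 0.18 above that median.

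The largest rises on average were those of Mrps36 (log2 fold change 0.56 ± 0.09, adjusted p = 4.32e-06), Mrpl42 (0.54 ± 0.08), Mrps14 (0.54 ± 0.08), Mrpl47 (0.52 ± 0.07), Mrpl18 (0.49 ± 0.05), Mrpl20 (0.44 ± 0.06), Mrpl12 (0.44 ± 0.05) and Mrps18c (0.43 ± 0.07). Mrps36 is named as a ribosomal protein and is also known as a component of the 2-oxoglutarate dehydrogenase complex; Mrpl12 belongs to the stalk of the large subunit that recruits translation factors; Mrps14 sits in the head of the small subunit. All 8 kept their calls when each library was left out in turn, with Mrps36 at an adjusted p of at most 1.28e-05. In a count over the 6 pairs of groups (3 diets in 2 sexes), Mrpl18 had every ZT16 library above every ZT4 library in 6 of 6 pairs, Mrpl42 and Mrpl47 in 5, and Mrpl12, Mrpl20, Mrpl46, Mrps9, Mrps18c and Mrps36 in 4. In the other direction, every ZT16 library was below every ZT4 library in 2 pairs for Mrpl10 and in 1 each for Mrps11, Mrps23, Mrpl45, Mrpl15 and Mrpl37. This count was not made over all genes, so how common such separation is among genes at large is not known.

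Mrpl18, a large subunit protein of the family that holds the 5S RNA in other ribosomes, showed the rise in each pair. In CON males, Mrpl18 was at 14.9, 16.2 and 17.1 at ZT4 and 18.6, 19.6 and 23.3 at ZT16 (CPM). In HFhf males, Mrpl18 was at 18.02, 18.3 and 19.6 at ZT4 and 22.5, 23.4, 23.4 and 30.4 at ZT16. In IUGR-HFhf males, Mrpl18 was at 15.9, 16.1 and 17.8 at ZT4 and 21.6, 22.5, 23.1 and 28.1 at ZT16. The times did not overlap in males of any of these diets, and the HFhf library at 30.4 CPM stood apart from the other 3 of its group. In CON females, Mrpl18 was at 14.1, 15.9 and 17.6 at ZT4 and 21.5, 23.7 and 26.4 at ZT16. In HFhf females, Mrpl18 was at 18.5, 18.9 and 22.7 at ZT4 and 24.7, 25.9, 25.9 and 26.99 at ZT16. In IUGR-HFhf females, Mrpl18 was at 13.3, 16.5, 19.6 and 21.4 at ZT4 and 23.9, 28.1, 28.9 and 33.4 at ZT16. The times were again apart in all 3 diets, with the widest spread in IUGR-HFhf. As the mean of all groups, Mrpl18 had a log2 fold change 0.49 ± 0.05, adjusted p = 4.64e-09, a fold of 1.403. Its reads ranged from 105 to 493 per library.

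Mrpl42, a protein of the large subunit with no bacterial counterpart, rose over a similar range. In CON males, Mrpl42 was at 11.5, 11.8 and 13.8 at ZT4 and 14.3, 15.03 and 17.2 at ZT16 (CPM). In HFhf males, Mrpl42 was at 8.91, 10.9 and 14.96 at ZT4 and 14.8, 14.9, 15.01 and 15.9 at ZT16. In IUGR-HFhf males, Mrpl42 was at 7.46, 8.14 and 14.9 at ZT4 and 17.5, 17.9, 18.3 and 20.04 at ZT16. HFhf males alone among the 6 pairs overlapped, through 1 ZT4 library at 14.96 CPM. In CON females, Mrpl42 was at 11.3, 11.3 and 15.3 at ZT4 and 15.5, 18.4 and 19.4 at ZT16. In HFhf females, Mrpl42 was at 10.97, 12.8 and 13.99 at ZT4 and 16.96, 17.1, 18.2 and 25.2 at ZT16. In IUGR-HFhf females, Mrpl42 was at 10.7, 12.05, 14.9 and 15.1 at ZT4 and 15.9, 17.1, 20.2 and 25.3 at ZT16. The times were apart in females of each diet. The mean rise of Mrpl42 was 0.54 ± 0.08 on the log2 scale, adjusted p = 7.11e-07.

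Mrpl47, which lies beside the exit tunnel, rose in 5 of 6 pairs without overlap. In CON males, Mrpl47 was at 6.07, 6.34 and 6.83 at ZT4 and 6.97, 7.31 and 10.7 at ZT16 (CPM). In IUGR-HFhf males, Mrpl47 was at 6.68, 7.36 and 9.56 at ZT4 and 11.99, 12.5, 13.1 and 13.2 at ZT16. In HFhf males, Mrpl47 was at 8.76, 10.1 and 10.3 at ZT4 and 7.95, 9.21, 9.78 and 9.93 at ZT16. The HFhf males overlapped, and their ZT4 libraries all lay above those of CON males at ZT4. In CON females, Mrpl47 was at 5.98, 6.35 and 6.51 at ZT4 and 10.6, 11.6 and 11.9 at ZT16. In HFhf females, Mrpl47 was at 5.35, 7.52 and 7.803 at ZT4 and 8.66, 9.84, 10.5 and 10.6 at ZT16. In IUGR-HFhf females, Mrpl47 was at 5.18, 6.95, 9.19 and 9.93 at ZT4 and 10.1, 12.7, 12.8 and 16.3 at ZT16. In CON females the times were apart, and they rose in their means from 6.28 ± 0.270 to 11.4 ± 0.707 CPM (SD, n = 3). For Mrps36 the 4 pairs without overlap were CON females, HFhf males and both sexes of IUGR-HFhf. In IUGR-HFhf males, Mrps36 was at 8.24, 9.298 and 9.44 at ZT4 and 14.1, 16.95, 17.3 and 18.1 at ZT16. In CON males, Mrps36 was at 6.83, 9.51 and 9.96 at ZT4 and 8.42, 11.7 and 13.7 at ZT16, which overlapped. With 37 to 207 reads per library Mrps36 was among the thinner of the members described, and Mrpl47 had 41 to 241.

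**Figure D2:**
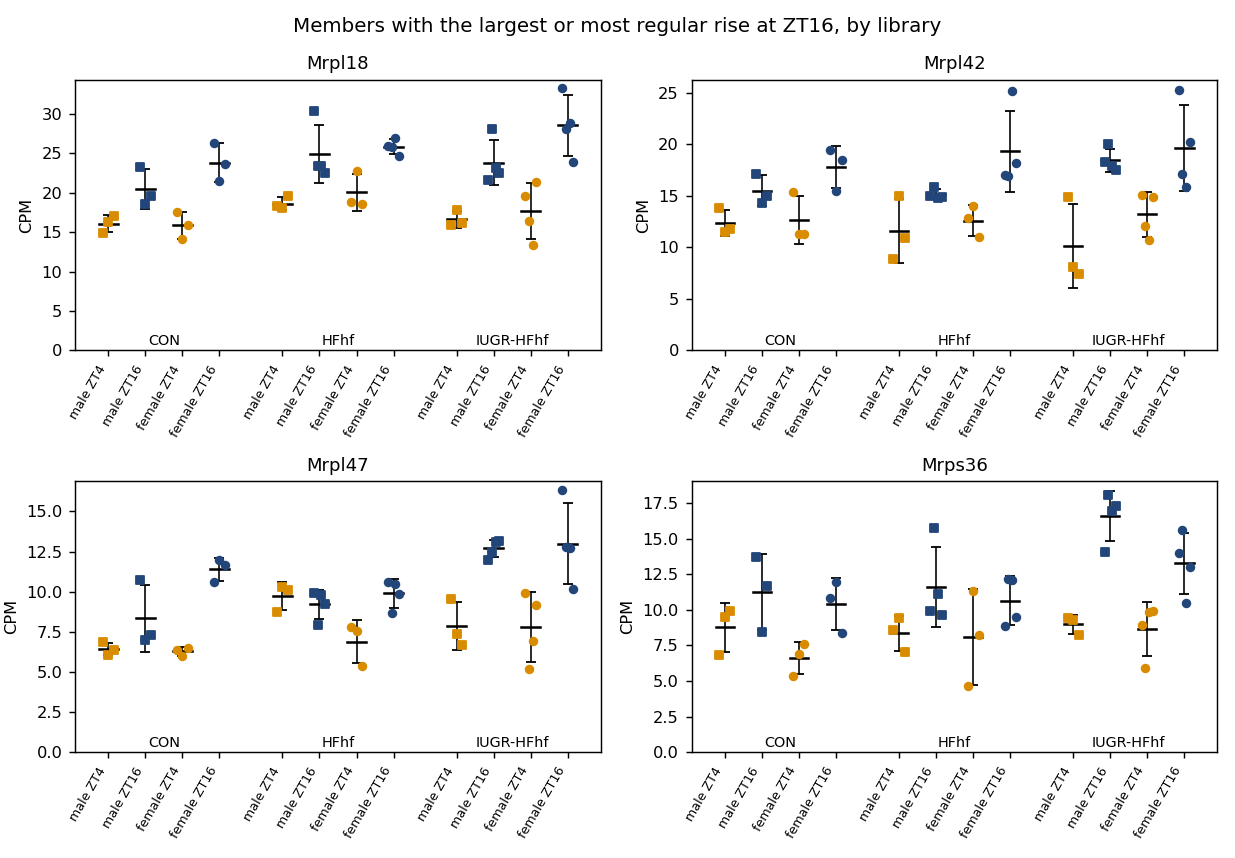
CPM of Mrpl18, Mrpl42, Mrpl47 and Mrps36 in each of the 41 libraries of CON, HFhf and IUGR-HFhf (squares males, circles females; orange ZT4, blue ZT16), with group mean and SD. Blue points lie above orange ones in 6 of 6 pairs for Mrpl18, 5 for Mrpl42 and Mrpl47 and 4 for Mrps36. The share of all genes with such separation was not counted.

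Within single diets the rise was called in fewer members. In CON 10 members were higher at ZT16 and none lower (7.74% of all genes higher, 8.32% lower), with a median of 0.12. In HFhf 12 were higher and none lower (7.11% and 6.68% of all genes), with a median of 0.15. In IUGR-HFhf 34 were higher and none lower (15.2% and 14.9% of all genes), with a median of 0.25. The leading 2 were Mrps36 and Mrpl42 in IUGR-HFhf (0.74 ± 0.15 and 0.72 ± 0.13), Mrpl47 and Mrps36 in CON (0.61 ± 0.13 and 0.50 ± 0.16) and Mrpl42 and Mrps14 in HFhf (0.50 ± 0.14 and 0.46 ± 0.13). The difference itself was tested. For no member was the time effect of HFhf called different from that of CON (1.3% of all genes called), nor was that of IUGR-HFhf (2% of all genes, and 1 member called with DESeq2). An unadjusted p under 0.05 was found for 4 members and 1136 of the 10825 genes in HFhf. In IUGR-HFhf it was found for 14 members and 1722 genes. The IUGR-HFhf groups hold more libraries than those of CON, so the counts 10 and 34 do not rest on the same number. The CON count fell to 5 without male ZT16 CON replicate 3 and to 6 without male ZT16 replicate 1, male ZT4 replicate 3, female ZT4 replicates 2 or 3 or female ZT16 replicate 3 of CON; the HFhf count fell to 6 without male ZT4 replicate 1 or female ZT4 replicate 3 of HFhf. The difference of IUGR-HFhf from CON was called for 3 members without female ZT4 IUGR-HFhf replicate 4, and for 1 without male ZT4 IUGR-HFhf replicate 2, male ZT4 HFhf replicate 2 or female ZT4 HFhf replicate 2.

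The clock genes themselves did differ between the diets. Arntl, which encodes the clock activator BMAL1, was at 48.6 to 60.6 CPM at ZT4 and 2.36 to 9.95 at ZT16 in CON males, and at 13.3 to 20.5 and 31.01 to 41.1 in HFhf males. Dbp, a clock output gene, was at 3.56 to 6.46 CPM at ZT4 and 58.4 to 139 at ZT16 in CON males, and at 60.2 to 115 and 10.97 to 18.01 in HFhf males. In HFhf males both genes thus stood in the opposite order to CON, without overlap between the times. In females at ZT4, CON had Dbp at 3.54 to 3.87 CPM, while HFhf had 12.7 to 73.2 and IUGR-HFhf 7.83 to 102; female ZT4 IUGR-HFhf replicate 1 had Arntl at 12.03 and Dbp at 102. In IUGR-HFhf males Dbp was at 24.9 to 77.7 at ZT4 and 12.000 to 44.2 at ZT16, which overlapped. The time effect was called different from that of CON for clock genes including Dbp (HFhf minus CON -5.80 ± 0.69, adjusted p = 7.17e-06), Nr1d1 (-4.61 ± 0.52, adjusted p = 4.09e-06) and Arntl (3.25 ± 0.44, adjusted p = 3.52e-05), and in IUGR-HFhf for Dbp (-4.97 ± 0.67, adjusted p = 0.000112) and Arntl (2.49 ± 0.43, adjusted p = 0.0016). The part of this in the members' time and diet differences was not tested.

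For 7 members the ZT16 minus ZT4 difference was higher in males than in females. In males 37 members were higher at ZT16 and none lower (median 0.26; 13.4% of all genes higher, 13.1% lower). In females 20 were higher and none lower (median 0.11; 16.8% and 17% of all genes). The sex difference of the time effect was called for 8 members, all of the small subunit: it was larger in males for 7 (2.84% of all genes) and larger in females for 1 (2.48%). The 2 largest toward males were Mrps16 (male minus female 0.62 ± 0.12, adjusted p = 0.00252) and Mrps12 (0.59 ± 0.11, adjusted p = 0.00206); both kept their calls in all fits that left out 1 library and in all other settings run. Named after their values were seen, the other 5 were Mrps14 (0.54 ± 0.15), Mrps24 (0.47 ± 0.11), Mrps25 (0.44 ± 0.10), Mrps11 (0.41 ± 0.10) and Mrps34 (0.36 ± 0.10). The member toward females was Mrps10 (male minus female -0.65 ± 0.19, adjusted p = 0.0376), a head protein of the small subunit; this call was lost in 19 of the 41 fits that left out 1 library, that without male ZT16 HFhf replicate 3 included, and in 3 of 6 other settings. Without male ZT4 HFhf replicate 2 the 7 became 11, and without male ZT16 CON replicate 1 the 1 became 2. In females, leaving out female ZT16 IUGR-HFhf replicate 4 gave 1 member lower at ZT16. Of the 40 large subunit members none was called and 10 had an unadjusted p under 0.05, as had 2211 of the 10825 genes tested. The median male minus female difference of the large subunit members was 0.10, against 0.21 in the small subunit, and the difference between the subunits was not tested. Of the markers of other cells, 1 of 5 red cell markers, Hba2 (2.15 ± 0.59, adjusted p = 0.0291), and 1 of 8 stellate markers, Pdgfrb (0.71 ± 0.15, adjusted p = 0.00709), were called in this comparison, both toward males, and their part was not tested.

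Mrps12 forms part of the decoding site. In CON males, Mrps12 was at 11.95, 13.3 and 13.4 at ZT4 and 19.8, 21.3 and 23.3 at ZT16 (CPM). In HFhf males, Mrps12 was at 13.4, 14.6 and 17.7 at ZT4 and 18.01, 20.3, 21.6 and 21.9 at ZT16. In IUGR-HFhf males, Mrps12 was at 13.8, 14.9 and 17.6 at ZT4 and 21.5, 22.5, 23.6 and 27.6 at ZT16. The times were apart in males of each diet. In CON females, Mrps12 was at 12.4, 13.98 and 17.9 at ZT4 and 15.7, 16.1 and 16.4 at ZT16. In HFhf females, Mrps12 was at 17.8, 19.4 and 21.3 at ZT4 and 14.1, 15.1, 18.2 and 20.02 at ZT16. In IUGR-HFhf females, Mrps12 was at 14.3, 16.1, 16.5 and 19.5 at ZT4 and 15.5, 18.6, 18.9 and 19.8 at ZT16. The times overlapped in females of each diet. Mrps12 is shown for its called sex difference, and such separation was not counted over all genes.

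Mrps16, another small subunit protein with a bacterial counterpart, had the same arrangement. In CON males, Mrps16 was at 12.9, 17.8 and 18.2 at ZT4 and 18.3, 20.9 and 27.7 at ZT16 (CPM). In HFhf males, Mrps16 was at 12.8, 16.8 and 16.8 at ZT4 and 23.1, 24.7, 28.95 and 30.2 at ZT16. In IUGR-HFhf males, Mrps16 was at 14.8, 16.99 and 21.8 at ZT4 and 23.998, 24.6, 24.6 and 25.8 at ZT16. The times were apart in males of each diet. In CON females, Mrps16 was at 20.1, 20.3 and 23.1 at ZT4 and 17.7, 21.4 and 23.2 at ZT16. In HFhf females, Mrps16 was at 18.8, 19.9 and 22.3 at ZT4 and 16.2, 16.9, 20.2 and 21.8 at ZT16. In IUGR-HFhf females, Mrps16 was at 18.3, 19.6, 22.5 and 23.3 at ZT4 and 20.9, 21.3, 21.4 and 22.7 at ZT16. The times overlapped in females of each diet, and at ZT4 CON and HFhf males lay wholly below females of the same diet. For this member too, separation was not counted over all genes. For Mrps10, with 19 to 108 reads per library, CON females were at 4.46, 4.85 and 5.39 at ZT4 and 6.91, 7.28 and 8.29 at ZT16 and HFhf females at 2.39, 3.496 and 4.18 at ZT4 and 4.81, 5.16, 5.95 and 6.098 at ZT16, both apart. In IUGR-HFhf females the times overlapped for Mrps10. In CON males, Mrps10 was at 3.700, 4.49 and 5.04 at ZT4 and 5.04, 5.28 and 6.45 at ZT16, which met at 5.04 CPM, and HFhf and IUGR-HFhf males overlapped too.

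**Figure D3:**
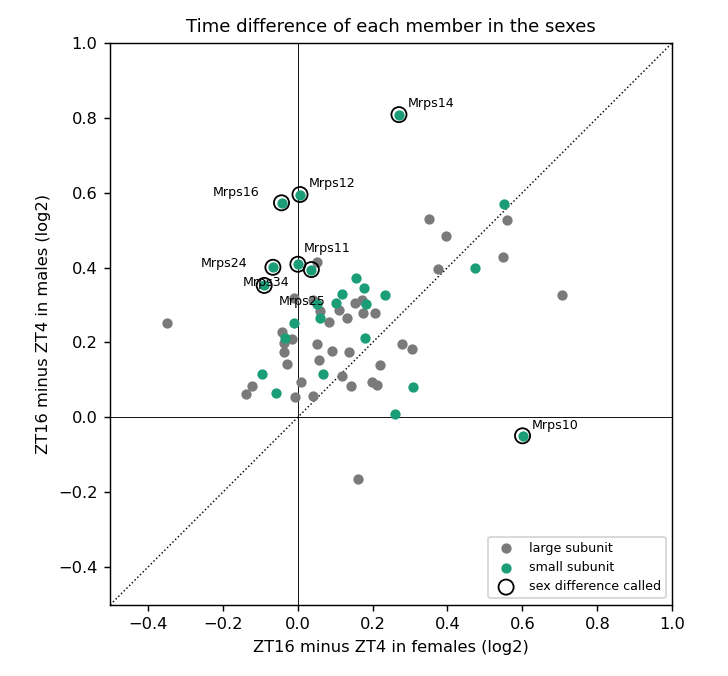
Log2 difference ZT16 minus ZT4 of each of the 66 tested members in females (horizontal) and males (vertical), as means of 3 diets, with the large subunit in grey and the small subunit in green; the dotted line marks equal differences. The 8 ringed members with a called sex difference are all of the small subunit, and Mrps10 alone lies toward females.

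Related genes were read from lists written with earlier results of these data known. Beside their counts at ZT16, the shares of all genes called were 21.7% higher and 21.2% lower. At ZT16 50 of 72 nuclear genes of oxidative phosphorylation were higher and none lower (median 0.21), led by Cox7c (0.55 ± 0.08, adjusted p = 2.93e-07), a subunit of cytochrome c oxidase, and Ndufa2 (0.42 ± 0.06, adjusted p = 1.79e-06) of complex I. Of the cytosolic ribosomal proteins 29 of 67 were higher and none lower (median 0.17). Among 24 tested assembly factors of the mitochondrial ribosome 8 were higher and 1 lower, with Tfb1m, which methylates the small ribosomal RNA, at 0.55 ± 0.07, adjusted p = 2.03e-08, and Mterfd1 at 0.53 ± 0.06, adjusted p = 4.25e-09; Rbfa was lower (-0.13 ± 0.05, adjusted p = 0.0315). Among 14 translation and RNA-handling factors 7 were higher and 1 lower, with Slirp at 0.54 ± 0.07, adjusted p = 1.18e-07 and its partner Lrpprc, which together stabilise mitochondrial messenger RNA, at 0.39 ± 0.05, adjusted p = 1.46e-08, while Mtif3, an initiation factor, fell (-0.14 ± 0.05, adjusted p = 0.0387). Of 18 mitochondrial tRNA synthetases 2 were higher, led by Yars2 (0.63 ± 0.07, adjusted p = 2.98e-09), and 4 lower, led by Kars (-0.27 ± 0.03, adjusted p = 7.64e-08), which serves the cytosol too. Of 10 further subunits 4 were higher, led by Chchd1 (0.52 ± 0.06, adjusted p = 2.88e-09) and mrpl11 (0.30 ± 0.05, adjusted p = 5.26e-06), and 1 lower, mrpl9 (-0.14 ± 0.05, adjusted p = 0.0391). In mtDNA replication and transcription 6 of 20 were higher and 3 lower, with Polg2 at 0.46 ± 0.07, adjusted p = 4.85e-06, Tfb2m at 0.46 ± 0.05, adjusted p = 1.02e-08, Polg, the catalytic subunit of the mtDNA polymerase, at -0.76 ± 0.07, adjusted p = 3.49e-11 and Lig3 at -0.31 ± 0.04, adjusted p = 8.15e-09. Of 13 regulators of mitochondrial biogenesis 3 were higher, led by Esrra (0.35 ± 0.07, adjusted p = 8.13e-05) and Ppara (0.28 ± 0.10, adjusted p = 0.0207), and 5 lower, led by Myc (-0.57 ± 0.20, adjusted p = 0.0181) and Nfe2l2 (-0.24 ± 0.07, adjusted p = 0.00352). Of 15 clock genes 8 were higher and 5 lower.

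Some markers of other cells were called between the times too. The shares of all genes called were 21.7% higher and 21.2% lower at ZT16. Endothelial markers were called in 4 of 7, all lower at ZT16, and summed to 449 to 569 CPM at ZT4 and 386 to 519 at ZT16. Stellate cell markers were called lower in 5 of 8 and higher in 1, with sums of 470.0 to 666 and 381 to 647 CPM. Of 10 macrophage markers 1 was higher (sums 359 to 720.0 and 336 to 738 CPM), of 8 hepatocyte markers 1 was higher and 2 lower, and of 5 cholangiocyte and 3 tested lymphocyte markers none was called. Pancreatic enzyme transcripts reached 1158 CPM at ZT4 and 209 at ZT16, with 1 of 2 lower. Their part in the members' rise was not tested.

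In HFhf livers 5 members were slightly higher than in CON, 4 of them of the large subunit. Averaged over sexes and times, 5 of 66 members were higher in HFhf than in CON and none was lower, where 5.48% of all genes were called higher and 4.6% lower. An unadjusted p under 0.05 was found for 15 of the 66 members and for 2436 of the 10825 genes tested. The 5 were Mrpl3 (log2 fold change 0.32 ± 0.06, adjusted p = 0.000211), Mrpl37 (0.24 ± 0.06, adjusted p = 0.00934), Mrpl18 (0.24 ± 0.07, adjusted p = 0.0212), Mrpl12 (0.23 ± 0.07, adjusted p = 0.0269) and Mrps34 (0.20 ± 0.06, adjusted p = 0.0297), folds of 1.25 for Mrpl3 and 1.15 for Mrps34. Mrpl3 reaches toward the peptidyl transferase centre, Mrpl37 is a mitochondrial addition to the large subunit, and Mrps34 one to the small subunit. The members' median was 0.08 against 0.01 for all genes, and turned to -0.07 with libraries scaled to oxidative phosphorylation genes. That scaling put the median of all genes at -0.14, called 1 member higher and 7 lower, and left the members 0.07 above the median gene. Of all genes tested it called 220 higher and 2264 lower. A share of 5 in 66 is near the share of all genes called higher. The 5 became 2 without female ZT4 CON replicate 2 and 3 without male ZT4 HFhf replicate 2, male ZT16 CON replicate 2, female ZT4 HFhf replicate 2 or female ZT16 CON replicate 1; Mrpl3 and Mrpl37 kept their calls in every one of the 41 such fits.

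For Mrpl3, males of each diet were apart from CON. At ZT4, Mrpl3 in males was at 23.1, 23.8 and 26.04 CPM in CON, 30.3, 31.95 and 34.2 in HFhf and 28.4, 28.4 and 33.6 in IUGR-HFhf. At ZT16, Mrpl3 in males was at 26.1, 27.5 and 33.4 in CON, 34.1, 38.3, 41.8 and 46.7 in HFhf and 36.3, 36.9, 37.4 and 41.5 in IUGR-HFhf. Both diets stood above CON without overlap at both times in males. Mrpl3 and Mrpl37 are shown because they were called in both diet averages, and such separation was not counted over all genes. At ZT4, Mrpl3 in females was at 24.2, 26.6 and 31.2 in CON, 25.9, 31.3 and 32.8 in HFhf and 28.7, 30.3, 33.8 and 33.9 in IUGR-HFhf. At ZT16, Mrpl3 in females was at 27.8, 28.4 and 30.9 in CON, 30.8, 33.8, 37.4 and 41.3 in HFhf and 33.2, 33.5, 35.3 and 37.1 in IUGR-HFhf. In females the groups overlapped, except IUGR-HFhf against CON at ZT16. Mrpl37 was apart in other groups. At ZT4, Mrpl37 in females was at 35.02, 38.7 and 39.5 in CON, 48.95, 50.2 and 51.7 in HFhf and 35.8, 36.9, 38.04 and 42.8 in IUGR-HFhf. At ZT16, Mrpl37 in females was at 33.5, 33.9 and 35.3 in CON, 36.1, 38.6, 41.4 and 42.8 in HFhf and 37.5, 38.2, 39.9 and 52.7 in IUGR-HFhf. HFhf females stood above CON at both times, and at ZT4 they stood above IUGR-HFhf females too. IUGR-HFhf females also stood above CON at ZT16, and overlapped it at ZT4. At ZT4, Mrpl37 in males was at 34.99, 35.3 and 36.7 in CON, 31.9, 41.1 and 42.4 in HFhf and 36.9, 40.6 and 45.5 in IUGR-HFhf. At ZT16, Mrpl37 in males was at 29.3, 36.1 and 42.8 in CON, 35.9, 43.7, 44.5 and 45.04 in HFhf and 39.6, 40.7, 46.3 and 48.99 in IUGR-HFhf. Among males, only IUGR-HFhf at ZT4 was apart from CON.

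**Figure D4:**
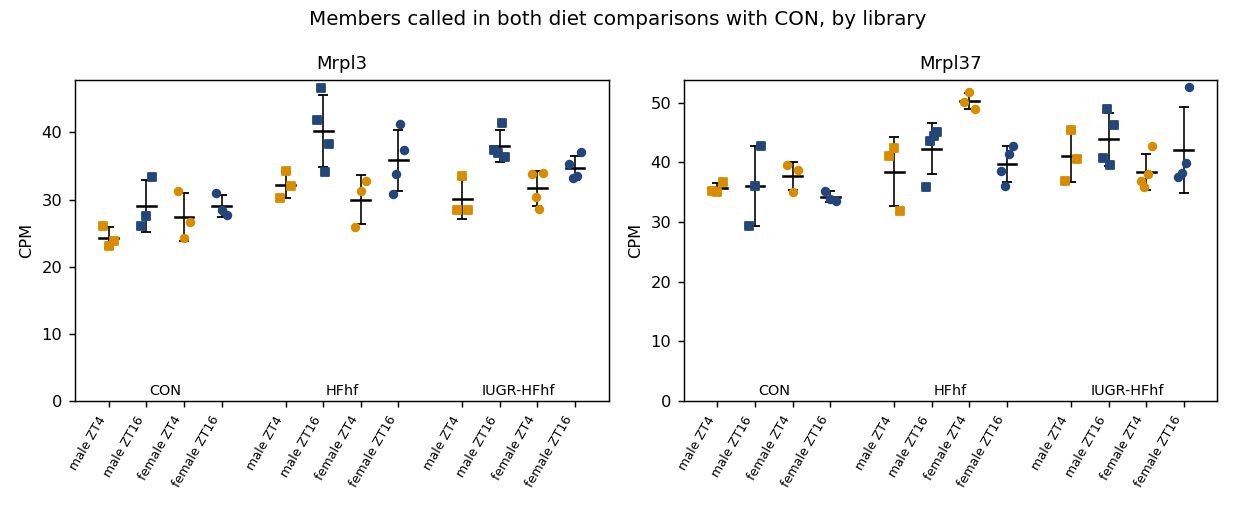
CPM of Mrpl3 and Mrpl37 in each of the 41 libraries, by diet, sex and time (squares males, circles females; orange ZT4, blue ZT16), with group mean and SD. For Mrpl3 the HFhf and IUGR-HFhf males lie above CON males at both times, and for Mrpl37 the HFhf females at ZT4 lie highest among ZT4 groups, between 48.95 and 51.7 CPM. The share of all genes with such separation was not counted.

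IUGR-HFhf livers, restricted before birth and then on the HFhf diet, had 9 of 66 members higher than CON and none lower, where 7.15% of all genes were called higher and 6.05% lower. The 8 largest were Mrpl47 (log2 fold change 0.35 ± 0.09, adjusted p = 0.00607), Mrps36 (0.33 ± 0.11), Mrpl3 (0.29 ± 0.06), Mrpl48 (0.24 ± 0.07), Mrpl15 (0.22 ± 0.07), Mrpl37 (0.20 ± 0.06), Mrps11 (0.19 ± 0.06) and Mrps30 (0.19 ± 0.06), and the ninth was Mrps34 (0.18 ± 0.06). Mrpl15 lies at the base of the large subunit and Mrps11 on the platform of the small one. The members' median was 0.09, against 0.002 for all genes, and -0.08 when scaled to oxidative phosphorylation genes. That scaling called no member higher and 7 lower, with all genes at -0.17 and the members 0.09 above the median gene. Of all genes tested it called 279 higher and 3706 lower. Mrpl47, Mrpl3 and Mrpl48 kept their calls in each fit without 1 library, while Mrpl15 lost its call in 17 of 41, Mrps11 in 13, Mrps36 in 10, Mrps30 in 9 and Mrpl37 in 2. The 9 became 4 without male ZT4 IUGR-HFhf replicate 2 or male ZT16 CON replicate 2 and 5 without female ZT4 CON replicate 2 or female ZT16 CON replicate 3. They became 4 in a fit of all 56 libraries and 5 with no filter on low counts. A member was called lower, 1 each, without male ZT4 CON replicate 1 or IUGR-HFhf male ZT16 replicate 3, female ZT4 replicate 1 or female ZT16 replicate 1. HFhf and IUGR-HFhf share their CON libraries: side by side, Mrpl3 stood at 0.32 ± 0.06 and 0.29 ± 0.06, Mrpl37 at 0.24 ± 0.06 and 0.20 ± 0.06, Mrpl47 at 0.17 ± 0.09 and 0.35 ± 0.09, and Mrps36 at 0.07 ± 0.11 and 0.33 ± 0.11.

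Set against each other, IUGR-HFhf and HFhf had no member called by edgeR in either direction (0.0462% of all genes higher, 0.0277% lower), and also 0 with DESeq2 and with limma voom. In edgeR 2 members and 1002 of the 10825 genes had an unadjusted p under 0.05. On the whole list the smallest p belonged to Mrps36 (log2 fold change 0.27 ± 0.11, adjusted p = 0.404) and Mrpl47 (0.18 ± 0.09), both on the side of IUGR-HFhf; on the side of HFhf they were Mrpl4 (-0.10 ± 0.07) and Mrpl18 (-0.07 ± 0.06), and the median over the members was 0.02. In single groups of sex and time most diet differences fell short of the threshold. HFhf against CON called 0 members in males at ZT4 (1.5% of all genes), 1 in males at ZT16 (1.85%), 0 in ZT4 females (1.92%) and 0 in ZT16 females (1.68%). An unadjusted p under 0.05 was found for 5, 8, 7 and 5 members, and for 1375, 1492, 1464 and 1326 of all genes. The 1 called member was Mrpl3 (0.46 ± 0.11, adjusted p = 0.0253), which lost its call without male ZT16 CON replicates 1 or 2 or male ZT16 HFhf replicate 2. The count was 2 without female ZT4 HFhf replicates 2 or 3 or female ZT16 IUGR-HFhf replicate 3. In females at ZT4, 1 member was called without female ZT4 CON replicate 1 or female ZT16 IUGR-HFhf replicate 4. IUGR-HFhf against CON called 0 in males at ZT4 (0.979%), 4 in males at ZT16 (5.04%), 0 in ZT4 females (0.915%) and 0 in ZT16 females (3.45%). An unadjusted p under 0.05 was found for 6, 19, 2 and 15 members, and for 1639, 2073, 1232 and 1734 of all genes. The leading 2 of the 4 called members, all higher, were Mrpl47 (0.62 ± 0.18, adjusted p = 0.0333) and Mrpl49 (0.60 ± 0.18, adjusted p = 0.0444). The 4 became 0 without male ZT16 CON replicate 2 or IUGR-HFhf replicates 2 or 4 of that group, 1 without CON replicate 3 or IUGR-HFhf replicates 1 or 3, and 2 without CON replicate 1. In females at ZT16, 1 was called without IUGR-HFhf female ZT4 replicate 3 or ZT16 replicate 1, or any of HFhf female ZT16 replicates 1, 2 and 3, and at ZT4 1 without CON female ZT4 replicate 1. No member's diet effect was called different between the sexes for HFhf (0.139% of all genes, 0 members with DESeq2) or for IUGR-HFhf (0.388%, 0 with DESeq2). An unadjusted p under 0.05 was found for 2 members and 815 of all genes in HFhf. In IUGR-HFhf it was found for 4 members and 864 of all genes.

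**Figure D5:**
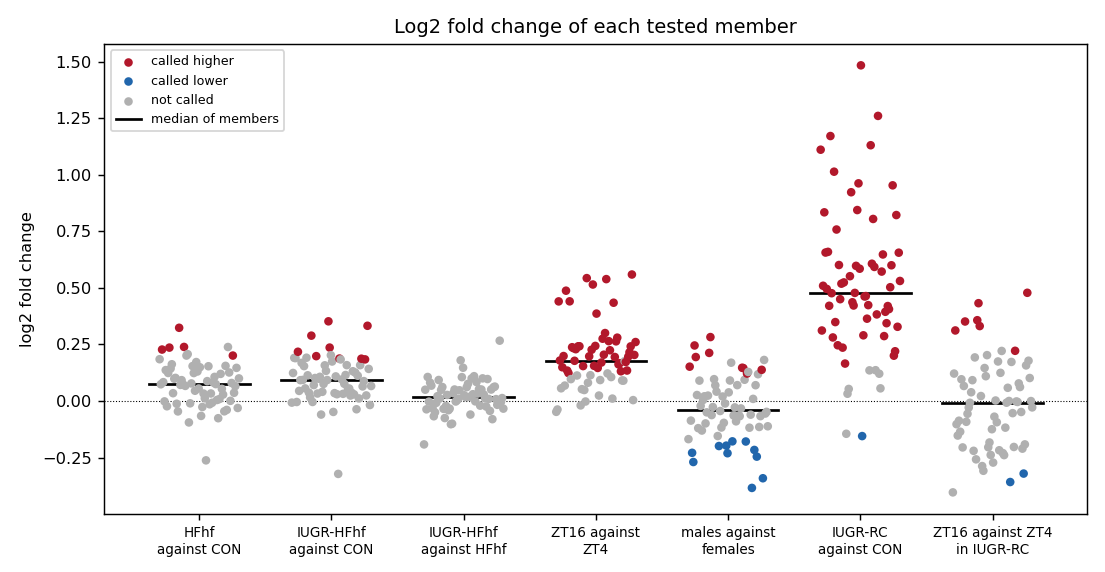
Log2 fold change of each of the 66 tested members (points) in 7 comparisons, red where called higher, blue where called lower and grey where not called, with the members' median as a bar. The median is 0.18 for ZT16 against ZT4 and 0.48 for IUGR-RC against CON; for HFhf (0.08), IUGR-HFhf (0.09) and the sexes (-0.04) the median changes sign when libraries are scaled to oxidative phosphorylation genes.

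Beside the diets, 13 of 72 oxidative phosphorylation genes were higher in HFhf than in CON and 25 in IUGR-HFhf, none lower, led by Cox8a of cytochrome c oxidase (0.39 ± 0.06, adjusted p = 7.34e-06 and 0.46 ± 0.06, adjusted p = 4.09e-07). Of the 14 translation factors 4 were higher in HFhf and 3 in IUGR-HFhf, led by the elongation factors Tsfm (0.39 ± 0.08, adjusted p = 0.000771 and 0.28 ± 0.08, adjusted p = 0.0105) and Gfm1 (0.25 ± 0.05, adjusted p = 0.000602 and 0.20 ± 0.05, adjusted p = 0.00491). None of 24 assembly factors and none of 18 tRNA synthetases was called in either diet, and cytosolic ribosomal proteins were called in 0 of 67 in HFhf and 4, all higher, in IUGR-HFhf. Of the regulators Ppargc1a, a coactivator of mitochondrial genes, was higher in IUGR-HFhf (0.58 ± 0.19, adjusted p = 0.0319). The lower-case row mrpl11 was higher in IUGR-HFhf (0.20 ± 0.06, adjusted p = 0.0184). The shares of all genes called were 5.48% higher and 4.6% lower in HFhf, and 7.15% and 6.05% in IUGR-HFhf. Markers of other cells in these averages were as follows: of 10 macrophage markers 1 was lower in each diet, of 5 cholangiocyte markers 1 was lower in each, of 7 endothelial markers 1 was higher in HFhf and none in IUGR-HFhf, and of 8 stellate markers none was called. Of 8 hepatocyte markers 2 were higher in each diet, Apoa1 (1.30 ± 0.21, adjusted p = 9.08e-05 in HFhf and 1.51 ± 0.21, adjusted p = 1.18e-05 in IUGR-HFhf) and Alb. The macrophage marker was Marco (-3.03 ± 0.34, adjusted p = 4.63e-07 in HFhf and -3.10 ± 0.33, adjusted p = 1.96e-07 in IUGR-HFhf). Neither of the 2 pancreatic markers tested was called in these averages; in females pancreatic transcripts summed to 60.6 to 209 CPM in CON, 3.85 to 15.7 in HFhf and 0.298 to 1158 in IUGR-HFhf, the highest being at ZT4, so that CON and HFhf females did not overlap. In IUGR-HFhf females at ZT4 the pancreatic transcript Cela1 was higher than in CON (4.27 ± 0.89, adjusted p = 0.0111). In IUGR-HFhf males at ZT16 the stellate markers Col1a1 (-1.34 ± 0.38, adjusted p = 0.032) and Col3a1 (-0.50 ± 0.15, adjusted p = 0.0402) and the macrophage marker Marco (-2.11 ± 0.61, adjusted p = 0.0393) were lower than in CON. The part of these in the members' differences was not tested.

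Males and females differed in single members in both directions, each in a smaller share of the members than of all genes. In males 9 members were higher than in females and 11 lower (19.3% and 19.5% of all genes), with a median of -0.04. Scaled to oxidative phosphorylation genes, the median became 0.04, with 19 members higher and 4 lower. That scaling called 3024 of all genes tested higher and 1285 lower. Higher in males were Mrpl34 (log2 fold change 0.28 ± 0.05, adjusted p = 3.66e-05), Mrpl15 (0.25 ± 0.06), Mrpl32 (0.21 ± 0.07), Mrpl16 (0.19 ± 0.05), Mrpl10 (0.15 ± 0.05), Mrps17 (0.15 ± 0.06), Mrps18a (0.15 ± 0.05) and Mrps34 (0.14 ± 0.05). Lower in males were Mrps24 (log2 fold change -0.38 ± 0.06, adjusted p = 5.45e-07), Mrps35 (-0.34 ± 0.05), Mrpl14 (-0.27 ± 0.07), Mrps28 (-0.25 ± 0.08), Mrpl49 (-0.23 ± 0.07), Mrpl13 (-0.23 ± 0.06), Mrps26 (-0.22 ± 0.05) and Mrpl42 (-0.20 ± 0.08). Both directions held large subunit members (6 higher, 6 lower of 40), and in the small subunit 3 were higher and 5 lower of 26. Mrpl34 is a small basic protein of the large subunit, Mrpl32 matures by cleavage after import, and Mrps24 lies in the head of the small subunit near the entry of the messenger RNA. Mrpl42 lost its call in 18 of 41 fits without 1 library and Mrps17 in 11.

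In the libraries, Mrps24 at ZT4 was at 12.1, 12.7 and 14.4 CPM in CON males and 19.2, 19.9 and 23.2 in CON females. In HFhf at ZT4, Mrps24 was at 12.6, 12.8 and 16.3 in males and 18.9, 23.1 and 27.4 in females, and in IUGR-HFhf at 14.3, 16.5 and 19.3 in males and 18.1, 21.2, 24.5 and 26.3 in females. CON and HFhf were apart at ZT4 and IUGR-HFhf overlapped. At ZT16, Mrps24 was at 15.4, 18.6 and 19.3 in CON males and 19.6, 22.5 and 27.8 in CON females. In HFhf at ZT16, Mrps24 was at 17.4, 19.01, 19.95 and 20.6 in males and 18.3, 18.6, 19.8 and 22.3 in females, and in IUGR-HFhf at 19.3, 19.4, 21.2 and 21.5 in males and 19.9, 20.7, 21.4 and 21.5 in females. At ZT16 CON alone was apart. Mrps24 is also among the members whose time effect differed between the sexes. Mrpl34 at ZT16 was at 18.03, 18.1 and 21.4 in CON males and 13.1, 15.3 and 15.7 in CON females, and in IUGR-HFhf at 16.95, 19.7, 21.1 and 21.2 in males and 14.3, 15.4, 16.2 and 16.2 in females. Mrpl34 at ZT4 was at 12.9, 16.8 and 18.1 in CON males and 12.2, 12.8 and 13.1 in CON females, and at 16.2, 16.5 and 17.95 in IUGR-HFhf males and 12.9, 12.9, 13.8 and 14.3 in IUGR-HFhf females. Males were apart from females at both times in IUGR-HFhf and at ZT16 in CON, while HFhf overlapped at both times. Separation of the sexes was not counted over all genes. Other genes differed too: of 67 cytosolic ribosomal proteins 1 was higher and 45 lower in males (median -0.31), of 72 oxidative phosphorylation genes 7 were higher and 17 lower, and Ppargc1a was lower (-0.71 ± 0.15, adjusted p = 0.00017). The shares of all genes called were 19.3% higher and 19.5% lower in males. Of 10 macrophage markers 1 was higher and 5 lower in males, and of 8 stellate markers 5 were higher. Of 7 endothelial markers 2 were higher, led by Vwf (0.56 ± 0.08, adjusted p = 3.36e-07), and 1 lower, Stab2 (-0.31 ± 0.05, adjusted p = 1.38e-05); of 5 cholangiocyte markers 1 was higher, Epcam (0.95 ± 0.10, adjusted p = 1.3e-09), and of 5 red cell markers 1 lower, Slc4a1 (-1.02 ± 0.11, adjusted p = 2.82e-09). Of the 2 pancreatic markers tested, Cela1 was higher in males (1.51 ± 0.46, adjusted p = 0.00893) and Cpa1 lower: pancreatic sums were at most 4.601 CPM in males and 60.6 to 209 in CON females. Their part in the members' differences was not tested.

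IUGR-RC libraries held more reads of nearly every member than CON libraries. Fitted with all 56 libraries, 58 of 66 members were higher in IUGR-RC and 1 lower (33% and 29.9% of the 11047 genes tested), with a median of 0.48 against 0.03 for all genes; 35 of 40 large and 23 of 26 small subunit members were higher. The 8 largest were Mrpl50 (log2 fold change 1.48 ± 0.11, adjusted p = 2.49e-16), Mrps18c (1.26 ± 0.10), Mrpl18 (1.17 ± 0.09), Mrps14 (1.13 ± 0.09), Mrpl1 (1.11 ± 0.20), Mrpl20 (1.01 ± 0.08), Mrpl48 (0.96 ± 0.08) and Mrps33 (0.95 ± 0.09), folds of 2.799 for Mrpl50 to 1.94 for Mrps33. The member called lower was Mrpl51 (log2 fold change -0.16 ± 0.06, adjusted p = 0.0241). No CON library shares a title series with these libraries, so diet history and any batch cannot be told apart. Other genes moved with them: of 73 oxidative phosphorylation genes 64 were higher and 3 lower, of 68 cytosolic ribosomal proteins 49 and 5 (median 0.79), of 24 assembly factors 17 and 1, and of 10 further ribosome subunits 9 and 0, led by Chchd1 (1.09 ± 0.08, adjusted p = 7.49e-16). Macrophage markers were higher in 7 of 10 and lower in none, with sums of 619.7 to 1224 CPM in IUGR-RC and 336 to 738 in the other 41 libraries. Endothelial markers were higher in 2 of 7 and lower in 4, led by Stab2 (-0.85 ± 0.07, adjusted p = 3.76e-14) and Kdr (-0.57 ± 0.05, adjusted p = 9.66e-14), with sums of 317 to 477 CPM against 386 to 569. Stellate markers were higher in 2 of 8, led by Dcn (1.29 ± 0.29, adjusted p = 0.000194), and lower in 2, Reln (-1.07 ± 0.07, adjusted p = 1.39e-17) and Pdgfrb (-0.84 ± 0.13, adjusted p = 5.86e-07). Their part in the members' difference was not tested. Left out in turn, single libraries gave 54 to 59 members higher and 1 or 2 lower, with 2 lower without CON male ZT4 replicate 1, male ZT16 replicate 3 or female ZT4 replicate 2, or IUGR-RC male ZT4 or female ZT4 replicate 1.

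Mrpl50, a mitochondrial addition to the large subunit, kept apart from CON in each sex and time. At ZT4, Mrpl50 in males was at 10.3, 10.3 and 10.8 CPM in CON and 32.8, 40.3, 44.5 and 47.3 in IUGR-RC. At ZT16, Mrpl50 in males was at 9.29, 11.4 and 15.3 in CON and 28.4, 31.2, 37.1 and 51.6 in IUGR-RC. At ZT4, Mrpl50 in females was at 9.56, 9.99 and 11.3 in CON and 18.8, 30.1 and 36.7 in IUGR-RC, and at ZT16 at 10.2, 10.7 and 14.7 in CON and 20.2, 20.3, 22.6 and 23.6 in IUGR-RC. The lowest female ZT4 value, 18.8 CPM, belongs to replicate 2, the library with muscle transcripts. At ZT4, Mrps18c in males was at 14.7, 16.9 and 17.2 in CON and 41.4, 42.2, 42.8 and 52.8 in IUGR-RC. At ZT16, Mrps18c in males was at 14.3, 15.3 and 16.7 in CON and 25.5, 37.1, 40.7 and 54.5 in IUGR-RC. For Mrps18c in females the values were 13.5, 14.2 and 15.1 against 23.6, 48.8 and 59.8 at ZT4 and 17.9, 19.3 and 22.7 against 28.5, 29.7, 30.95 and 31.8 at ZT16. Mrps18c was apart from CON in all 4 as well. Separation from CON was not counted over all genes. In IUGR-RC males, Mrpl18 was at 33.98, 44.4, 53.5 and 55.9 at ZT4 and 38.05, 43.4, 49.5 and 64.1 at ZT16, and in females at 27.7, 39.9 and 64.3 at ZT4 and 29.5, 30.1, 32.6 and 34.5 at ZT16, all above CON of the same sex and time and overlapping between the times.

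Within IUGR-RC, where both times of a sex share a title series, 7 members were higher at ZT16 and 2 lower (9.4% and 10.6% of all genes), with a median of -0.01 and 29 of 66 above 0. Higher were Mrps35 (log2 fold change 0.48 ± 0.09, adjusted p = 8.97e-05), Mrpl38 (0.43 ± 0.10), Mrpl37 (0.36 ± 0.08), Mrpl2 (0.35 ± 0.08), Mrpl4 (0.33 ± 0.10), Mrpl12 (0.31 ± 0.09) and Mrps23 (0.22 ± 0.08); lower were Mrps18c (-0.36 ± 0.13) and Mrps31 (-0.32 ± 0.11). In IUGR-RC males 4 were called, all higher (10.6% of all genes), led by Mrpl37 (0.44 ± 0.11) and Mrpl38 (0.42 ± 0.14), and in females 2, both higher (6.98%), Mrps35 (0.54 ± 0.13) and Mrps2 (0.40 ± 0.12). In IUGR-RC males, Mrpl37 was at 32.5, 33.5, 33.7 and 35.6 at ZT4 and 36.8, 48.3, 49.1 and 50.1 at ZT16, and in females at 34.03, 38.7 and 39.7 at ZT4 and 43.3, 44.9, 45.005 and 47.97 at ZT16, both apart. Separation of the times in IUGR-RC was not counted over all genes. The time effect differed from that of CON for 4 members. The ZT16 minus ZT4 difference of Mrpl37 was higher in IUGR-RC than in CON (IUGR-RC minus CON 0.42 ± 0.12, adjusted p = 0.0405, where 1.41% of all genes were called). That of Mrps14 (-0.72 ± 0.18), Mrpl47 (-0.79 ± 0.23) and Mrpl18 (-0.67 ± 0.18, named after its value was seen) was lower in IUGR-RC than in CON (1.38%).

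These counts rest on few libraries. Without the 4 libraries that stood apart, 2 of them IUGR-RC females at ZT4, 3 members were higher and 1 lower at ZT16 in IUGR-RC, none was called in its females, and the difference from CON was called for 0 members toward IUGR-RC and 1 toward CON. The count of lower members moved by over 1.5 times in 24 of the 27 fits without 1 library and ran from 0 to 13, with 13 without male ZT16 replicate 1, 10 without female ZT4 replicate 2 and 5 without male ZT4 replicate 2 of IUGR-RC. Male ZT16 replicate 1 of IUGR-RC also stood apart from its group for Mrpl47 (25.2 CPM against 10.6 to 12.6) and Mrpl37 (36.8 CPM against 48.3 to 50.1). Without it 12 members were called in IUGR-RC males and 6 in females, and the difference from CON was called for 3 members toward IUGR-RC and 9 toward CON. In males the 4 became 2 without ZT4 replicate 4 or ZT16 replicate 3 and 1 without ZT16 replicate 4; in females the 2 became 4 without ZT4 replicate 2 and 1 without ZT4 replicate 3 or ZT16 replicate 2. The difference toward CON was called for 8 members without female ZT4 replicate 2 and for 5 without male ZT4 replicate 2 of IUGR-RC, and for 0 or 1 without any of 13 other libraries. Mrpl37 lost that difference in 17 of 27 fits without 1 library, Mrpl47 in 20 and Mrps14 in 4. The depth of the 4 IUGR-RC males at ZT16 ran from 5.55 M to 16.5 M counted reads. In the female libraries with muscle transcripts and with ZT16-like clock genes the summed members stood at 1384 and 1926 CPM, the lowest and the highest of that group.

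In the authors' deposited tables, which compare a diet with CON inside each sex and time, 67 of the 69 members are listed. The authors' deposited table of HFhf males at ZT16 has Mrpl3 as its 1 member with an adjusted p under 0.05 (1.51% of all 13485 genes), and that of HFhf females at ZT4 has Mrpl37 (1.56%). In the authors' deposited tables of the other 6 HFhf and IUGR-HFhf groups no member passed, where 0.749% to 3.4% of all genes did. In the authors' deposited table of IUGR-RC males at ZT4, 50 members were higher, where 38% of all 13485 genes passed in either direction. The authors' deposited table has 45 members higher in ZT16 males (30.7% of all genes), 44 in ZT4 females (32.2%), and 29 higher and 1 lower in ZT16 females (19.9%).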

How the data were processed

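Per the labels' protocols, RNA of rat liver was made into stranded libraries after removal of ribosomal RNA; the molecule label reads polyA RNA and the source label names mouse liver, while the organism label names rat. The authors deposited 1 table of raw read counts per gene for 56 libraries; the submitters' processing notes list FastQC, STAR, featureCounts, Subread, DESeq2 and the build rn6, without versions. The authors also deposited 12 tables of log2 fold changes and adjusted p-values of a diet against CON, used here for counts of members alone.

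Counts were tested as deposited with edgeR 4.0.16 (R 4.3.3): filterByExpr, TMM scaling, robust quasi-likelihood fit, 1 mean per group, two-sided, with Benjamini-Hochberg adjustment over all genes tested and a threshold of 0.05. CON, HFhf and IUGR-HFhf were fitted with 41 libraries and 12 groups (10825 genes), IUGR-RC with all 56 (11047 genes); 28 comparisons were made. CPM are counts scaled to one common library size, on the TMM scale of the 56-library fit. Libraries held 5.55 M to 19.1 M counts, and PCR copies could not be told apart, so counts are not independent molecules. The code was tested on simulated data. Alternatives were DESeq2 1.42.0, limma 3.58.1 (voom), other scalings and filters, and libraries left out.

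The members and lists were chosen with earlier results of these data known. Named members are up to 8 with the largest called change in each direction of a comparison of means (with fewer than 2 called, the 2 smallest p in each direction), and up to 2 for a single group or a difference; from other lists, the largest called changes. Replicate numbers follow accession order and pair no samples. The genes Mrpl28, Mrpl33, Mrpl39 and Mrps6 are not analysed here. Genes with near-identical copies may share reads.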

Additional observations from a re-analysis of the deposited data

Results flagged for a closer look

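Each group of 4 libraries was tested for 14 quantities, the summed CPM and single members, which gave 112 tests. Chance alone gives about 1 in 20 in independent tests, and these 112 tests reuse the same libraries. In 9 of them 1 library lay far from the other 3 (past the 95% limit of Dixon's ratio of gap to range). In HFhf at ZT16 the values that lay apart were Mrpl18 in male replicate 1 (30.4 CPM, the others 22.5 to 23.4), Mrpl37 in the same library (35.9, the others 43.7 to 45.04) and Mrpl42 in female replicate 3 (25.2, the others 16.96 to 18.2). Mrpl37 stood at 52.7 CPM in female ZT16 IUGR-HFhf replicate 4, where the others had 37.5 to 39.9. In IUGR-RC males at ZT16, replicate 1 had Mrpl47 at 25.2 CPM (the others 10.6 to 12.6) and Mrpl37 at 36.8 (48.3 to 50.1), and replicate 2 had Mrps16 at 26.3 (37.1 to 38.98). In IUGR-RC males at ZT4, Mrps24 was at 16.5 CPM in replicate 2 (22.1 to 23.1) and Mrps18c at 52.8 in replicate 1 (41.4 to 42.8).

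The difference between ZT16 and ZT4 was called unequal in the sexes for 8 members, as log2 male minus female: Mrps16 0.62, Mrps12 0.59, Mrps14 0.54, Mrps24 0.47, Mrps25 0.44, Mrps11 0.41, Mrps34 0.36 and Mrps10 -0.65. It was called unequal between IUGR-RC and CON for 4 members, as log2 IUGR-RC minus CON: Mrpl37 0.42, Mrpl18 -0.67, Mrps14 -0.72 and Mrpl47 -0.79.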

How the results depend on the processing

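None of the members named by the rule given above changed direction in any setting or with any library left out. Scaled to oxidative phosphorylation genes, the members' median changed sign for HFhf, IUGR-HFhf and the sexes. Counts of called members that moved by over 1.5 times are given by setting. With DESeq2 they were 1 for HFhf in females at ZT4, 2 for IUGR-HFhf in males at ZT16, 1 for it in females at ZT16, 1 for its difference between the times, and 1 lower at ZT16 in IUGR-RC. With no filter on low counts they were 5 higher in IUGR-HFhf, 1 in its males at ZT16, 6 higher at ZT16 in CON, and 0 for the lower counts of the sex difference of time and of ZT16 in IUGR-RC and for the higher count of IUGR-RC minus CON. A fit of all 56 libraries gave 4 higher in IUGR-HFhf, 0 in its males at ZT16 and 0 for the lower sex difference of time, which was also 0 without the 2 doubted libraries. With limma voom they were 1 lower in IUGR-HFhf, 2 each for HFhf in ZT16 males and ZT4 females, 11 for IUGR-HFhf in males at ZT16, 1 for its difference between the times and 2 for the lower sex difference of time. For IUGR-RC, limma voom gave 13 lower at ZT16, 12 in males, 1 in females and 14 lower than CON in the time difference. Fitting CON and IUGR-RC alone gave 0 lower at ZT16, 1 in females, and 0 higher and 0 lower against CON. Without the 4 doubted libraries these were 3 higher and 1 lower at ZT16, 0 in females, and 0 higher and 1 lower against CON. Scaling to oxidative phosphorylation genes gave 1 higher and 7 lower for HFhf (median log2 -0.0738), 0 and 7 for IUGR-HFhf (-0.0838), 10 and 3 for the times (0.0252), and 19 and 4 for the sexes. Of all genes tested it gave 220 higher and 2264 lower for HFhf, and 279 and 3706 for IUGR-HFhf. It gave 825 and 4549 of all genes for the times, and 3024 and 1285 for the sexes. Counting the 3 rows in lower case (chosen after seeing the data) gave 1 lower at ZT16, also in females. The causes were not tested.

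Leaving out each library gave 2 to 7 members higher in HFhf, 4 to 12 higher and 0 to 1 lower in IUGR-HFhf, 5 to 10 higher at ZT16 in CON, 6 to 16 in HFhf, 0 to 1 lower in females, and 5 to 11 higher and 0 to 2 lower in the sex difference of time. In single groups it gave 0 to 2 for HFhf in ZT16 males, 0 to 1 in ZT4 females, and for IUGR-HFhf 0 to 6 in males at ZT16 and 0 to 1 in females at each time, with 0 to 3 for its difference between the times. IUGR-RC against CON gave 1 to 2 lower; its ZT16 gave 0 to 13 lower, 1 to 12 in males and 1 to 6 in females, and its difference from CON 0 to 3 higher and 0 to 9 lower. Of values for named members, 66 of 533 under other settings and 232 of 3012 with a library left out lost their call. No paired analysis was possible because replicate numbers follow accession order.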
